A study of Mus musculus with 2 samples.

Results

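The genes of the proteasome were followed in adult mouse testis. Members were the protein-coding genes whose symbols begin with Psma to Psmg and go on with a number, which took 49 of the 21474 protein-coding genes matched in the tables. The rule leaves out Psmc3ip, a meiotic recombination gene named after a proteasome gene. By role, the members were 14 constitutive core genes, 2 core genes used in particular tissues, 3 immunoproteasome genes, 17 cap genes, 7 assembly factors and 6 activators or inhibitors.

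The study sequenced poly(A) RNA from testes of male C57BL/6J mice aged 8 weeks, in 2 libraries that form 1 untreated group. The RNA was longer than 200 nucleotides and depleted of ribosomal RNA, and spike-in RNA was added before stranded pairs of 76 nucleotides were read. The labels call the libraries biological replicates 1 and 2 from littermates but list 1 donor identifier for both, which leaves the number of animals unclear. With 1 group there is no test between conditions, and each SD (n = 2) measures only the spread between these libraries, which may be technical.

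The proteasome is a barrel of stacked rings that degrades proteins tagged with ubiquitin. The outer rings are made of alpha subunits and the inner rings of beta subunits, some of which carry the proteolytic sites, and a cap with an ATPase ring binds, unfolds and feeds in the substrates. In male germ cells Psma8 encodes an alpha subunit that takes the place of the Psma7 product in a form called the spermatoproteasome, and the activator PA200, encoded by Psme4, is known for its part in histone removal during spermatogenesis.

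Expected counts, the estimated reads per gene, summed to 50374324 in replicate 1 and 52788929 in replicate 2. The members held 222537 and 240621 of them, which is 0.442% (95% Wilson interval 0.440 to 0.444) and 0.456% (0.454 to 0.458). These intervals cover counting error only. Levels are given as TPM, transcripts per 1000000, which divides by length and so allows genes to be compared within a library. Of the germ cell lists, the late spermatocyte and spermatid one was high in both libraries: all 8 genes were detected, with TPM sums of 69861 and 66461. The 7 meiotic chromosome genes were all detected too, with lower sums of 481 and 505. Their median TPM was 16.2, beside 12.9 for all detected protein-coding genes. The libraries differed in other cell types. The 7 epididymis genes had a TPM sum of 859 in replicate 1 and 3.68 in replicate 2, and the 5 peritubular and stromal genes to 296 and 140. The 8 macrophage and leukocyte genes summed to 55.1 and 50.8, and Ptprc, the general leukocyte marker, was at 0.34 and 0.52. In bulk tissue, fewer cells of a type and less RNA per cell cannot be told apart.

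Of the 49 members, 47 reached a TPM of 1 in each library, the level called detected here, beside 62.1% of all protein-coding genes. Both exceptions stayed under 1 in each library. Psmb11, the thymus-specific catalytic subunit, had 6 counts in replicate 1 and 1 in replicate 2, at a TPM of 0.04 and 0.01. Psme2b, a near copy of Psme2, was at 0.47 and 0.57. The levels of the members were far apart: the 8 highest, the same 8 in both libraries, held 67.8% and 66.0% of the members' TPM.

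**Figure D1:**
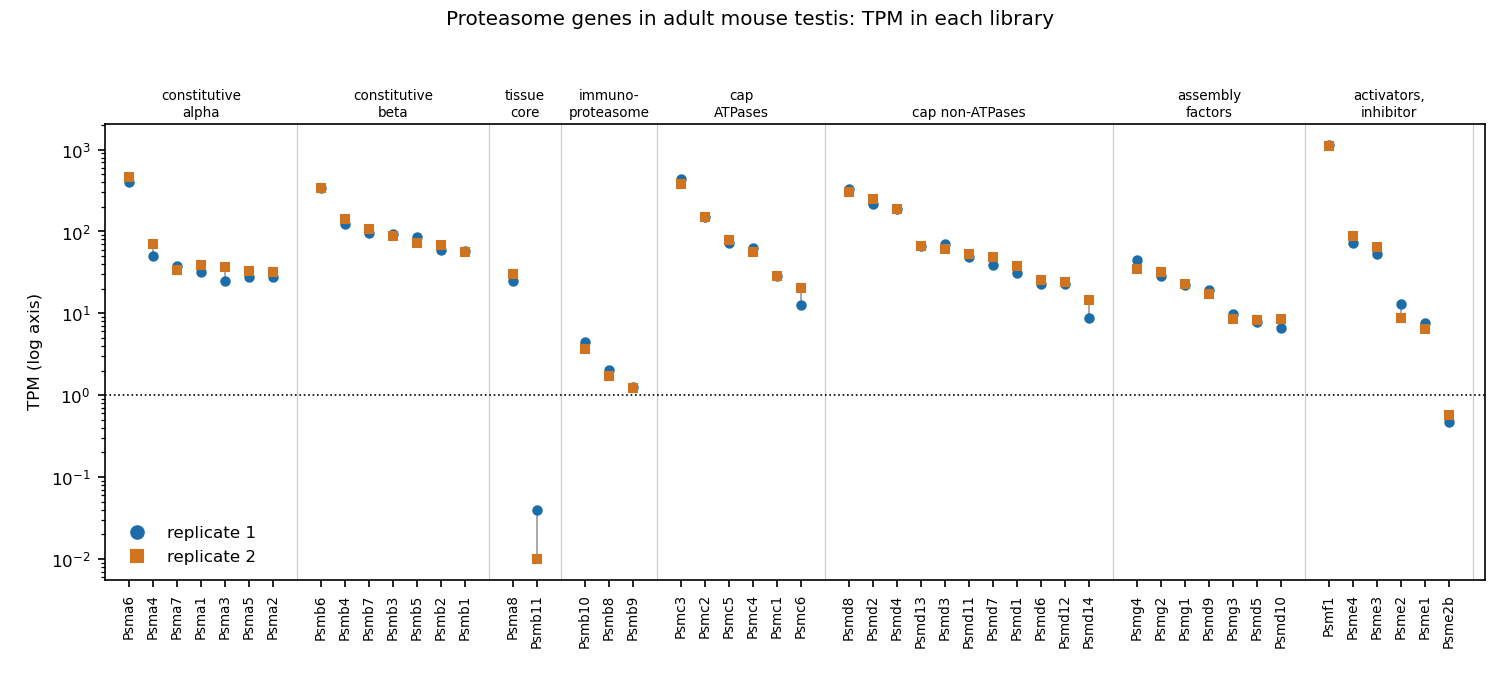
TPM of each proteasome gene on a log axis, grouped by role and ordered by mean within a group. Circles are replicate 1, squares replicate 2, the grey bar joins them and the dotted line is a TPM of 1. Psmf1 stands highest at 1142 and 1099, and only Psmb11 and Psme2b lie under the line.

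All 14 constitutive core genes were detected, and their median TPM was 58.5 in replicate 1 and 68.4 in replicate 2 (mean 63.4 ± 7.04, SD, n = 2). Their products sit in the barrel in equal numbers, while the RNA levels ranged 14.3-fold, from Psma2 at 27.94 and 32.36 to Psma6 at 397.84 and 465.93. On transcripts annotated as coding alone the range was 94.4-fold, with Psma3 lowest at a mean of 4.57. That width rests on Psma3 alone, since the next lowest, Psma2, had a mean of 30.15. Only 8 of the 14 lay within 2-fold of the median. The lowest 3 by mean were Psma2, Psma5 (28.00 and 33.04) and Psma3 (24.77 and 36.78), all outer-ring genes. In replicate 2 Psma7, at 33.45, was below Psma3. Of the 76-base stretches of Psma5, 34.6% also occur in annotated transcripts of other genes, mostly the processed pseudogene Gm8394 (20.7%).

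Among alpha genes, Psma6 stood apart from the rest. In replicate 1 it was 13.2-fold above the median of the other 6 constitutive alpha genes (30.1, range 24.8 to 50.2), and in replicate 2 it was 13.3-fold above (35.1, range 32.4 to 69.4). None of its 76-base stretches occurs unchanged in the annotated transcripts of another gene. A near copy with scattered base differences would not be found by this search. Among beta genes the highest 2 were Psmb6, which encodes the subunit with caspase-like activity, at 342.51 and 336.32, and Psmb4, a non-catalytic subunit, at 123.35 and 143.61. The beta ring median was 2.88-fold the alpha ring median in replicate 1 and 2.40-fold in replicate 2.

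Psma6 RNA was assigned mostly to the more upstream of its main annotated transcripts. Psma6, on chromosome 12 from 55384222 to 55418454 (mm10, plus strand), has the transcript Psma6-204, which begins 14553 bases before Psma6-201. Psma6-204 held 74.9% of the gene's TPM in replicate 1 and 72.6% in replicate 2, and Psma6-201 held 25.1% and 27.3%. The coding sequence of Psma6-204 is 684 bases, stop codon included, 19 codons shorter than the 741 bases of Psma6-201. The models also end 144 bases apart, so the tables do not tell which of their differences the split rests on.

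The RefSeq promoter windows at these starts are shown because the window at the start of the transcript with the larger share is the less GC-rich one. The RefSeq start of the upstream window is the first base of Psma6-204, and that of the downstream window lies 50 bases after the first base of Psma6-201. Each window runs from 250 bases before a start to 50 bases after it, on the plus strand of GRCm38.p6. Capitals mark the motifs searched on both strands: CCAAT, the GC box GGGCGG, the full cyclic AMP response element TGACGTCA, the antioxidant response core TGACNNNGC and the TATA box TATAAA.
Psma6 upstream start, chr12:55383972-55384271: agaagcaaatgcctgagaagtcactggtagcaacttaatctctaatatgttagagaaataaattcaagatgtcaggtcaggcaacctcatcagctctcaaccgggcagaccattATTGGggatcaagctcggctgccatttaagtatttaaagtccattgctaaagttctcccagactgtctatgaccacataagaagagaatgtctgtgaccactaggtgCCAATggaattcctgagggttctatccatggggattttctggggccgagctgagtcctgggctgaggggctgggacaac
Psma6 downstream start, chr12:55398575-55398874: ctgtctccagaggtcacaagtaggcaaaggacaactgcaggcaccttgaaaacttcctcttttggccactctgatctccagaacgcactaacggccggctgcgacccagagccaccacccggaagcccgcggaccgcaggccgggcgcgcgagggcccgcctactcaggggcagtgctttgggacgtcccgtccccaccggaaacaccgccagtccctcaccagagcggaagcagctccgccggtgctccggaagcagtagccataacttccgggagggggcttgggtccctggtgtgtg
The upstream window is 46.7% G or C and holds 2 CCAAT boxes, 1 on each strand. The downstream window is 65.0% G or C and holds none of the 5 motifs. The median over all 32851 promoter windows was 52.7% G or C.

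Over the members, windows of 41 genes of the 49 were counted from the RefSeq table used here, 44 in all. Any window on chromosome 18 was left out of the members' count, so Psma8 and Psmg2 are not in it. The GC box was in 24 of the 44 windows (54.5%), beside 35.7% of all windows. The members' windows also had a higher median G or C content, 57.3% beside 52.7% for all windows. Its part in the share of GC boxes was not tested. CCAAT was in 14 (31.8%, beside 37.4%), the antioxidant response core in 6 (13.6%, beside 12.4%) and the TATA box in 4 (9.09%, beside 13.6%). The full cyclic AMP response element was in 0 of 44, beside 1.79% of all windows. These are matches of letters only.

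**Figure D2:**
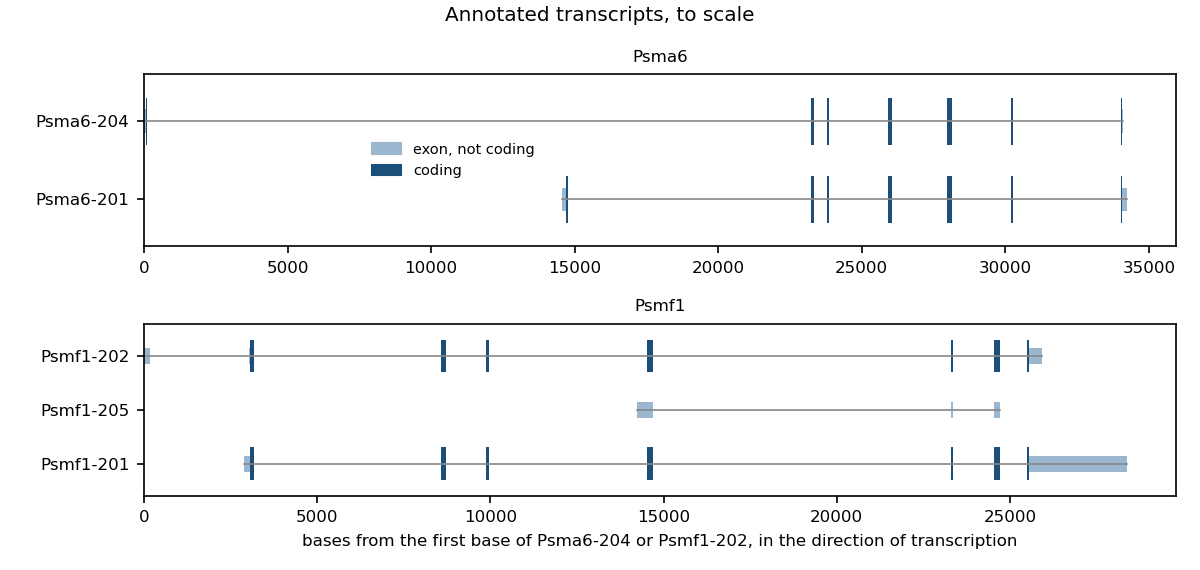
Exons of the main annotated transcripts of Psma6 and Psmf1, drawn to scale as thin lines for introns, pale boxes for non-coding and dark boxes for coding exons. The horizontal axis is the distance in bases from the first base of Psma6-204 or Psmf1-202. Psma6-201 starts 14553 bases after Psma6-204, and Psmf1-205 starts 14226 bases after Psmf1-202 and has no annotated coding part.

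The spermatoproteasome gene Psma8 was measured at TPM 25.00 (replicate 1) and 30.23 (replicate 2), and the constitutive Psma7 at 38.08 and 33.45. Psma8 lies on chromosome 18 from 14706151 to 14762301 (plus strand), and Psma7 on chromosome 2 from 180036374 to 180042433 (minus strand). Psma8 was the lower of the pair in each library, by a log2 TPM ratio of -0.61 in replicate 1 and -0.15 in replicate 2 (mean -0.38 ± 0.33, SD, n = 2). The ratio's range from the deposited interval bounds, whose level the files do not state, was -0.80 to -0.47 and -0.34 to -0.02. Psma8 thus made up 39.6% and 47.5% of the pair's TPM.

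The order of this pair depends on the division by length. Psma8 had the more counts, 1505 and 1893 against 1108 and 1009, over an effective length of 1491 bases in replicate 1 against 721 for Psma7. On counts not divided by length the log2 ratio was 0.67, in the opposite direction. The tables hold 1 transcript of Psma8, and 6 of its 7 transcripts in the later annotation are not in them. The coding sequences of the pair were identical at 559 of 747 aligned bases (74.8%) and shared no 76-base stretch. The genes of the pair differed between libraries in opposite directions, and their levels were closer in replicate 2. The log2 ratio of replicate 2 over replicate 1 was 0.25 (95% counting interval 0.16 to 0.35) for Psma8 and -0.21 (-0.34 to -0.09) for Psma7. Among the 8 alpha genes in these tables, Psma8 ranked 7th in replicate 1 and 8th in replicate 2.

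The immunoproteasome genes, which replace the 3 catalytic beta subunits in immune cells and under interferon, were low. The TPM of Psmb8 was 2.03 in replicate 1 and 1.73 in replicate 2, that of Psmb9 1.27 and 1.24, and that of Psmb10 4.50 and 3.66. Their constitutive counterparts Psmb5, with chymotrypsin-like activity, Psmb6 and Psmb7, with trypsin-like activity, were at 86.66 and 71.58, 342.51 and 336.32, and 96.41 and 108.39. Psmb8 was 42.7-fold and 41.4-fold below Psmb5. Psmb5 shared 36.1% of its 76-base stretches with other genes, mostly the processed pseudogene Gm3375 (32.3%). Psmb9 was 269.7-fold and 271-fold below Psmb6, and Psmb10 was 21.4-fold and 29.6-fold below Psmb7. The immunoproteasome genes thus held 1.46% and 1.27% of the TPM of the 6 catalytic genes.

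These low values rest on few reads: 70 and 57 counts for Psmb8, 58 and 55 for Psmb9 and 194 and 164 for Psmb10. All 3 were lower in replicate 2, and the counting interval of Psmb10 alone left out 0 (log2 ratio -0.32, interval -0.63 to -0.01). The 11 antigen presentation and interferon genes were all detected. In replicate 2, 8 were lower and 3 higher, beside 50% of all protein-coding genes higher. The 8 lower ones were H2-D1, Tap1, Tap2, Tapbp, Nlrc5, Irf1, Cd74 and B2m. B2m, the light chain of class I molecules, was at 145 and 31.0. All 5 peritubular and stromal genes were higher in replicate 1 as well, as was the epididymis sum, although Rnase10 of that list was lower there (2.42 and 3.23). Their part in these differences was not tested.

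**Figure D3:**
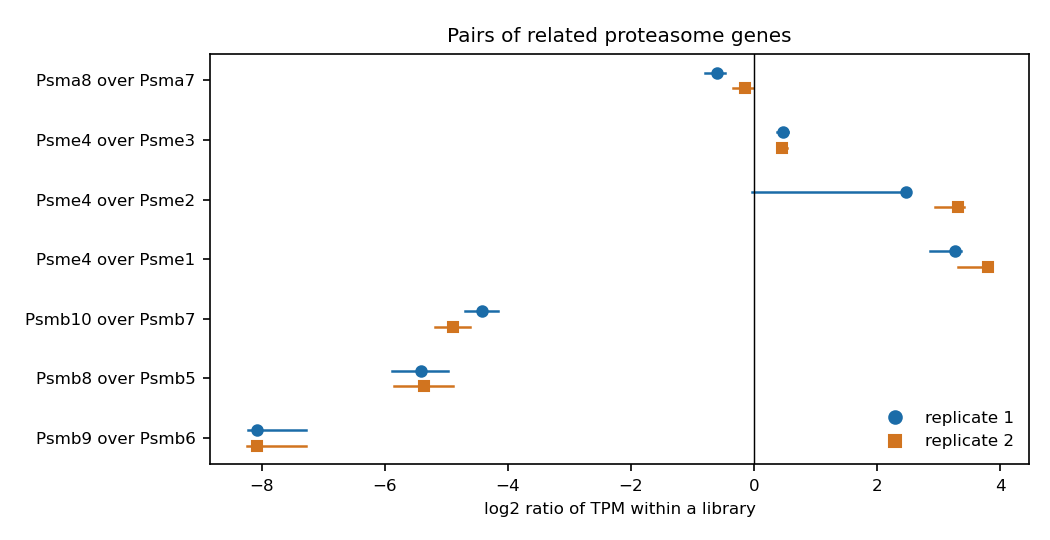
Log2 ratio of TPM within each library for 7 pairs of related genes. Points are the ratios, circles for replicate 1 and squares for replicate 2, and lines span the ratios of the deposited interval bounds. Psma8 over Psma7 lies just under 0, and the immunoproteasome pairs lie at -4.42 or lower.

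All 17 cap genes were detected, and their median TPM was 63.6 in replicate 1 and 55.8 in replicate 2 (mean 59.7 ± 5.56, SD, n = 2), close to the core median. Their levels ranged 34.8-fold, and 35.3-fold on coding transcripts alone. The highest 3 were the ATPase gene Psmc3 (438.35 and 376.87), Psmd8 (327.11 and 300.56), whose product is part of the lid, and Psmd2 (214.09 and 248.14), whose product is a scaffold that binds ubiquitin-like shuttles. The lowest 3 were Psmd12, then Psmc6 and Psmd14.

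Psmc6 encodes an ATPase of the ring that also holds the Psmc3 product, and Psmd14 encodes the enzyme that removes ubiquitin from substrates. The TPM of Psmc6 was 12.69 in replicate 1 and 20.57 in replicate 2, and that of Psmd14 was 8.88 and 14.57. Psmc3 was thus 24.5-fold above Psmc6 in mean TPM, within a ring that holds 1 copy of each. Psmd12, for a lid subunit, was at 22.91 and 24.24, a gap to the next gene, Psmd6 (23.11 and 25.51), that was within their spread.

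The assembly factors lay below the core, at a median TPM of 19.3 and 17.3 over 7 genes. Psmg1 and Psmg2 encode a pair of chaperones that builds the alpha ring, and they were at 21.98 and 22.98, and 28.29 and 32.22. Psmg3 and Psmg4 encode another such pair, and they were further apart, at 9.74 and 8.52, and 44.34 and 34.39. The cap chaperone genes Psmd5, Psmd9 and Psmd10 were between 6.62 and 19.26 in both libraries.

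Psme4 was the highest of the activator genes. Its TPM was 72.72 in replicate 1 and 88.34 in replicate 2, and Psme3, for the nuclear activator PA28 gamma, was at 52.50 and 64.42. Psme1 and Psme2, which encode the interferon-inducible PA28 alpha and beta, were at 7.55 and 6.35, and at 13.10 and 8.83. Psme4 made up 49.9% and 52.6% of the TPM of these 4 genes, and Psme3 36.0% and 38.4%.

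The distance from Psme4 to Psme3 was small and nearly the same in both libraries, 1.39-fold and 1.37-fold, with the deposited bounds at 1.30 to 1.47 and 1.30 to 1.45. Psme4 was 9.63-fold and 13.9-fold above Psme1. It was above Psme2 by 2.47 and 3.32 on the log2 scale, but the bounds for Psme2 in replicate 1 ran from 12.9 to 72.6, so that the log2 ratio there ran from -0.03 to 2.52. The deposited posterior mean of Psme2 in replicate 1 was 33.64, beside 9.77 in replicate 2. Psme2 shared 22.7% of its 76-base stretches with Psme2b, whose coding sequence matched it at 715 of 720 bases (99.3%). The posterior SD of the Psme2 count was 0.81% and 1.07% of its mean, so that the count of the gene was narrow where its TPM was wide.

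Psmf1, which encodes the proteasome inhibitor PI31, had the highest level of all members. Its TPM was 1141.64 in replicate 1 and 1099.07 in replicate 2 (mean 1120 ± 30.1, SD, n = 2), 2.87-fold and 2.36-fold above Psma6. That is the 99.7 percentile of protein-coding genes, and 24.2% and 22.9% of the members' TPM. Psmf1 lies on chromosome 2 from 151715812 to 151744186 (minus strand), and it shared no 76-base stretch with another gene.

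About as much of this was assigned to a model with no coding sequence as to a coding one. The coding transcript Psmf1-202, with 8 exons, held 49.4% and 51.6% of the gene's TPM, and Psmf1-205, a 3-exon model annotated as a retained intron, held 49.5% and 47.2%, so that the leading model differed between libraries. Psmf1-205 starts 14226 bases after Psmf1-202. On the transcripts annotated as coding alone, Psmf1 was still the highest member, at 567.70 and 570.29, or 1.43-fold and 1.22-fold the whole of Psma6. The other annotated coding model, Psmf1-201, starts 2876 bases after Psmf1-202 and ends 2453 bases apart from it, with a coding sequence of the same length, 816 bases.

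Of the 47 detected members, 7 had a leading transcript that held under 60% of the TPM, was not protein-coding or differed between libraries, beside 32.2% of all protein-coding genes whose mean TPM reached 1. In 1 of the 47, Psma3, the leading transcript was not protein-coding, beside 10.7%. Psma3-203, a retained intron model, held 56.6% and 50.7% of its TPM, and all its coding models together had a TPM of 2.48 and 6.66, out of 24.77 and 36.78. Psma3 shared 14.3% of its 76-base stretches with other genes, and all of these occurred in the processed pseudogene Gm13835. That share is over the stretches of all annotated models of Psma3, non-coding ones included. The share for its coding models alone was not computed. Psmd1 was led by the coding Psmd1-201 in replicate 1 (44.7%) and by Psmd1-208, a processed transcript of 939 bases, in replicate 2 (41.4%).

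The other 5 were Psma4, Psmd8, Psme2, Psmf1 and Psmg4. The 3 main coding models of Psmd8 held 43.3%, 30.3% and 26.5% in replicate 1 and 33.3%, 37.9% and 28.7% in replicate 2, so that the lead changed. In Psmg4 the 2 coding models held 56.9% and 43.1%, then 54.5% and 45.5%. In Psme2 the coding Psme2-208 held 42.7% in replicate 1 and 77.0% in replicate 2, and the retained intron model Psme2-205 was at 27.3% and 0%. Transcripts of a gene share most of their exons, so these shares are estimates with no count of reads that only 1 model explains.

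**Figure D4:**
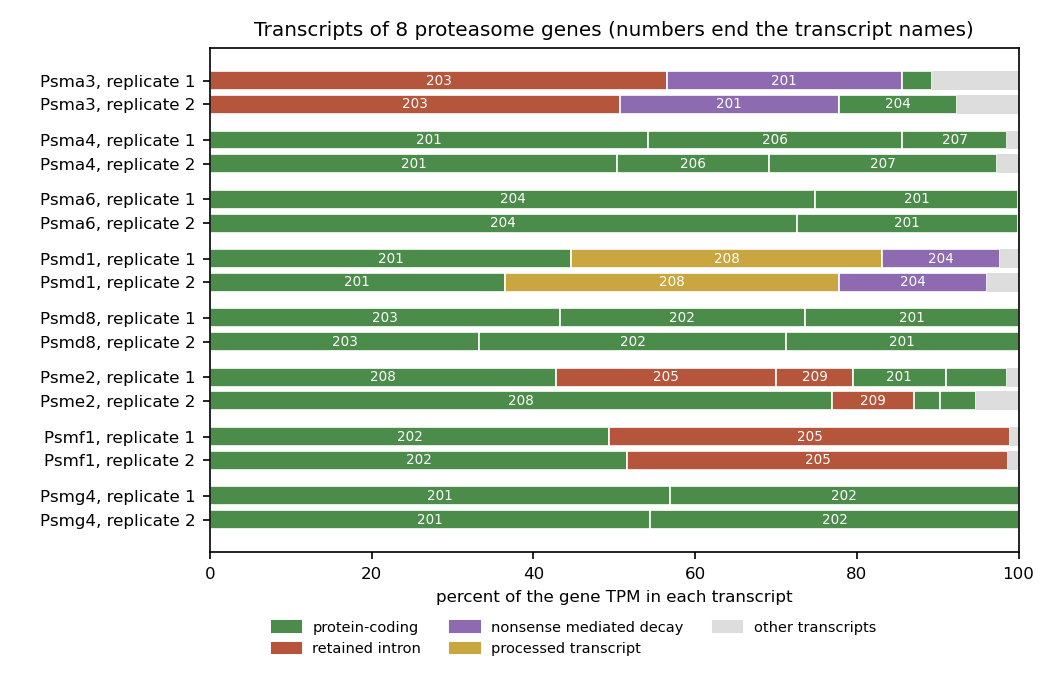
Share of each gene's TPM by transcript, in percent, for the 7 genes with a divided or changing lead and for Psma6, with 1 bar for each library. Colours give the annotated transcript type, numbers end the transcript names and grey is the sum of smaller transcripts. The retained intron model 205 takes 49.5% and 47.2% of Psmf1.

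The libraries were also compared gene by gene, as the log2 ratio of scaled counts in replicate 2 over replicate 1, for the 48 members with at least 10 counts in both. With 1 library on each side there is no test, and the intervals cover counting error only. The median ratio was 0.05, with 27 of 48 higher in replicate 2, beside 50% of all protein-coding genes. For 32 of 48 the counting interval left out 0, beside 55.1%. Past 1.5-fold were 2 of 48, beside 10.6% in either direction, and both were higher in replicate 2, beside 4.1%; 0 were lower, beside 6.51%.

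Those 2 were the lowest cap genes, Psmd14, with 471 and 798 counts and a log2 ratio of 0.68 (0.52 to 0.85), and Psmc6, with 698 and 1176 counts and a ratio of 0.68 (0.54 to 0.81). Among constitutive alpha genes 6 of 7 were higher in replicate 2, up to 0.44 for Psma3 and 0.43 for Psma4, and Psma7 was the one that was lower. Psme4 (0.26, interval 0.23 to 0.29) and Psme3 (0.28, interval 0.22 to 0.33) differed by nearly the same amount. The 7 meiotic chromosome genes and the 7 Sertoli genes were all higher in replicate 2 too, at medians of 0.17 and 0.33. Their part in the members' differences was not tested.

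**Figure D5:**
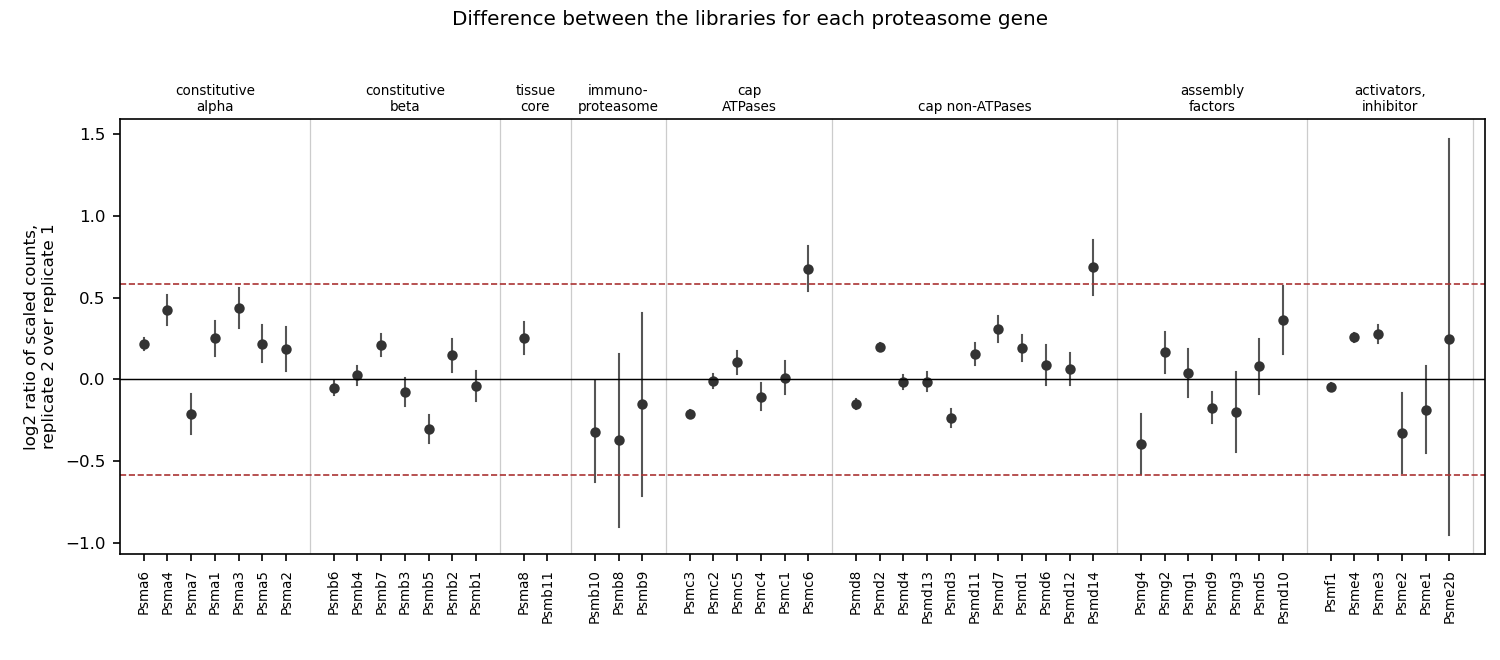
Log2 ratio of scaled counts, replicate 2 over replicate 1, for the 48 members with at least 10 counts in both libraries, with 95% counting intervals. Dashed lines mark 1.5-fold. Psmc6 and Psmd14 are the only points outside them.

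In the order of all members by mean TPM, neighbours kept their order in both libraries in 28 of 48 pairs. The gap was larger than the greater of the neighbours' SDs in 20 of 48. From Psmf1 to Psmb3 the only pair that did not keep its order was Psma6 and Psmc3. From Psme4 down to Psma8, at means of 80.5 to 27.6, most neighbours did not differ beyond their spread.

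Of 26 partner genes outside the name rule, 25 were matched and all of these were detected, at a median TPM of 39.2. High among them were Rad23b, which encodes a shuttle for ubiquitinated substrates (368.56 and 345.32), and Ubqlnl, a ubiquilin relative (228.28 and 273.59). Ddi1, a protease-like shuttle gene, was at 206.73 and 221.94, and its relative Ddi2, which cleaves the transcription factor that raises proteasome genes, was at 3.73 and 4.53. That factor's gene, Nfe2l1, was at 41.70 and 51.38. The chaperone gene Pomp, needed for core assembly, was at 37.28 and 41.15, and the ubiquitin receptor gene Adrm1 at 101.53 and 92.36. Of the partners, 17 were higher and 8 lower in replicate 2, beside 50% of all protein-coding genes higher there. Past 1.5-fold in either direction were 0 of 25, beside 10.6%.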

How the data were processed

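Poly(A) RNA of 2 testis libraries was used. The deposited tables hold, per the file headers, an expected count for every gene and transcript. Per the file headers, the authors also give TPM, posterior means, each transcript's share of its gene in percent, a posterior SD of the count (not used for calls) and interval bounds, a TPM signal whose level is not stated. The readme names mm10 and annotation M4. For the aligner and quantifier: not given in the sources used here. Symbols and positions came from GENCODE M21 by unversioned identifier, and 59 of the members' 274 transcripts there are not in the tables. Junctions and contigs on mm9 are not used here, since no coordinate was converted between builds.

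Members and lists were chosen with earlier results of these data known. Named were all members by role, the 3 highest and lowest of core and cap, those under a TPM of 1 or past 1.5-fold, and those with a divided leading transcript. Some genes that the rule names are left out of the text. Genes named beyond this rule were chosen after their values were seen. Values are means with SD over 2 libraries. Rounded expected counts were scaled by TMM in edgeR 4.0.16 (R 4.3.3), with 95% binomial intervals for counting error only. DESeq2 1.42.0 size factors were an alternative. The ratio script was tested on simulated data. Shared 76-base stretches were searched on both strands of all M21 transcripts. Coding sequences were aligned with Biopython 1.88.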

Additional observations from a re-analysis of the deposited data

How the results depend on the processing

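Of 80 recomputed values, 61 kept their direction and stayed within the limit for their kind, 18 moved further and 1 reversed. The limit was the SD between libraries for levels and pair ratios, the median counting half-width for the median library difference, and 1.5 times for counts of members. For levels and pair ratios, a value with 1 library left out always lies within that SD. Such values are among the 61 and could not have moved further. The reversed one was Psma8 over Psma7, at a log2 ratio of 0.67 on counts not divided by length. On those counts Psme4 was above Psme1, Psme2 and Psme3 by 6.43, 6.19 and 2.04, and Psmb8 over Psmb5 and Psmb9 over Psmb6 were -5.10 and -7.20. With posterior mean TPM, Psme4 over Psme2 was 2.14, Psmb8 over Psmb5 -5.35 and Psmb9 over Psmb6 -7.72. With coding transcripts alone, Psme4 over Psme1 was 4.02, Psme4 over Psme3 0.61, Psmb8 over Psmb5 -5.47 and Psmb9 over Psmb6 -8.18. With 1 added to each TPM, the last 2 pairs were -4.79 and -7.24. Means in place of medians were 109 for the core, 105 for the cap and 2.41 for the immunoproteasome, since a few high genes carry them. Of the 48 members with at least 10 counts in both libraries, 0 passed 2-fold, beside 2 past 1.5-fold. With no minimum count and a floor of 3 counts, 1 of 49 passed 2-fold and 3 passed 1.5-fold. The share of all protein-coding genes past 2-fold, or with that floor, was not counted, so these counts have no background to be set against. The cause of the other moves was not tested. Leaving out either library moved the Psma8 ratio between -0.61 and -0.15 and the number of divided leading transcripts between 6 and 7; both settings for the latter, and scaling on protein-coding genes only, were added after seeing the data. No paired analysis was possible because there is 1 group. Depth limits Psmb8, Psmb9, Psmb11 and Psme2b most, with 70 counts or fewer in each library.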
